A study of Sus scrofa with 5 samples.

Results

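The miR-34 and miR-449 miRNAs were followed across small RNA libraries of pig embryos and cultured cells. Members were chosen by name in the deposited table of reported miRNAs: miR-34a, miR-34c and miR-449a, with or without an arm ending. The table held 2 of these names, ssc-miR-34a and ssc-miR-34c, of 411 mature names in all. They took up 3 of its 493 rows, each row a mature miRNA on 1 precursor. 0 rows carried the name miR-449a, miR-449b, miR-449c or miR-34b, so nothing is reported on those miRNAs.

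5 libraries were sequenced. Blastocysts (BLs) were day 7 embryos from oocytes activated by an electric pulse without sperm (parthenogenetic, PA), cultured in PZM3 medium with serum added late, and pooled for 2 libraries, BL_1 and BL_2. Embryonic stem cell-like (ES-like) cells were a line derived from in vitro produced blastocysts and grown with stem cell factor and basic fibroblast growth factor on mitomycin-treated mouse embryonic fibroblasts. Porcine embryoid bodies (PEBs) were aggregated from these ES-like cells in hanging drops without cytokines. Pig fetal fibroblasts (PFFs) came from fetuses without head, limbs and internal organs and were grown in serum. ES-like cells, PEBs and PFFs had 1 library each. The sources do not say whether the BL pools came from separate collections of oocytes, so p-values measure only the spread between these pools.

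miRNAs are short RNAs that guide Argonaute proteins to matching sites in messenger RNAs, mainly through the seed near their 5′ end. miR-34a, miR-34b, miR-34c and the miR-449 miRNAs share a seed. miR-34 miRNAs are known to lower many proteins of the cell cycle and of cell survival. miR-34a comes from a gene of its own, while miR-34b and miR-34c are made from 1 shared transcript and, with miR-449, are abundant in multiciliated epithelium and testis. miR-34 miRNAs have also been described as a barrier to the reprogramming of somatic cells to pluripotency. In the RefSeq gene table of the Sscrofa11.1 assembly, used for names only, the precursor gene MIR34C-1 overlapped BTG4, an antiproliferative gene of oocytes, and C9H11orf88.

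The depth of the libraries was uneven, with 113743 mature reads for BL_1, 2782150 for BL_2, 6372500 for the ES-like cells, 15849954 for the PEBs and 27071931 for the PFFs. Levels are given as reads per 1000000 mature miRNA reads of a library (RPM), on which scale 1 read was worth 8.79 RPM in BL_1 and 0.0369 RPM in PFFs. By the study's account, miRNAs were a far smaller part of all small RNAs in BLs than in the cultured cells. RPM relates to mature miRNA reads only. Relative to all small RNA, BLs and cultured cells could compare differently, which was not examined. In these bulk libraries, fewer cells of a type and less RNA per cell cannot be told apart. Whether mouse feeder cells added reads to the ES-like or PEB library was not tested. Marker lists were compared with the labels. The 6 fibroblast and mesenchymal miRNAs summed to 218 to 264 RPM in BLs, 58015 RPM in ES-like cells, 131745 RPM in PEBs and 182203 RPM in PFFs, with precursor rows summed, so that reads of ssc-miR-199a-3p and ssc-miR-199a-5p may count more than 1 time. Of the 5 pluripotency-associated miRNAs, ssc-miR-371-5p led in BLs (324635 and 296148 RPM) and stood at only 30.9 RPM in ES-like cells, where ssc-miR-363 led with 41258 RPM. In BLs, ssc-miR-363 stood at 422 and 331 RPM, ssc-miR-20b at 87.9 and 70.4 RPM, ssc-miR-106a at 26.4 and 15.5 RPM, and ssc-miR-18b had 0 reads. These 4 were lower in BLs than in ES-like cells by the edgeR test given below (29.7% of all tested miRNAs). Against PFFs none of the 4 passed. The values of ssc-miR-363 and ssc-miR-20b sum 2 precursor rows and may count a read more than 1 time. The study's sample sheet gives the read totals of ES-like cells and PFFs the other way round from the table, and an exchange of these libraries would exchange their values in every result given here. The table's column names were followed, under which the sum of the fibroblast list is highest in PFFs, where ssc-miR-143-3p made up 101507 RPM of it, although 3 of its 6 miRNAs were higher in PEBs than in PFFs (ssc-miR-199a-3p, ssc-miR-199a-5p and ssc-miR-214). Under these names ssc-miR-371-5p stands at 30.9 RPM in ES-like cells against 0.185 RPM in PFFs. All 5 pluripotency-associated miRNAs were more than 2-fold higher in RPM in ES-like cells than in PFFs (53% of all tested miRNAs). The study reports that blastocysts and ES-like cells clustered by miRNA pattern in its heatmaps. The muscle list lay between 191 and 2445 RPM and the blood cell list between 3.58 and 106 RPM.

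ssc-miR-34c was abundant in ES-like cells and PEBs, intermediate in BLs and low in PFFs. Its reads, summed over the precursor rows, numbered 98 and 4082 in the BL libraries (BL_1 and BL_2), 81242 from ES-like cells, 242472 from PEBs and 5164 from PFFs. These reads gave 862 RPM in BL_1, 1467 RPM in BL_2, 12749 RPM in ES-like cells, 15298 RPM in PEBs and 191 RPM in PFFs. In RPM, ES-like cells and PEBs thus lay far above the other 3 libraries, and both BL libraries lay above PFFs. By reads, ssc-miR-34c ranked 16th of 309 detected miRNAs in ES-like cells and 13th of 306 in PEBs, where it made up 1.27% and 1.53% of the reads. It ranked 55th of 215 in BL_1, 44th of 275 in BL_2 and 98th of 315 in PFFs. These ranks and percentages use the summed rows, and ranks on 1 row were not computed.

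The level of ssc-miR-34c on this scale has an uncertain factor. Its precursor rows, ssc-mir-34c-1 and ssc-mir-34c-2, held the same count in every library, which was 49 and 2041 for the BL libraries, 40621 for ES-like cells, 121236 with PEBs and 2582 with PFFs. Among the 58 detected miRNAs with more than 1 row, 27 (46.6%) had rows identical in every library and 31 did not. Identical counts of this size in every library would not arise if reads were assigned to the rows independently. Whether each read was counted on both rows or divided equally between them is not stated. Read from 1 row, ssc-miR-34c stood at 431 RPM in BL_1, 734 RPM in BL_2, 6374 RPM in ES-like cells, 7649 RPM in PEBs and 95.4 RPM in PFFs. Ratios of ssc-miR-34c between libraries are the same for 1 row and for the sum over the same total. Counting intervals of levels are exact Poisson intervals at the 95% level on 1 row. Those of ratios between cultured cells are exact conditional binomial intervals, also at the 95% level on 1 row. Both kinds cover counting error only.

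ssc-miR-34a was scarcer than ssc-miR-34c in each library except PFFs, and its level varied less. It had 1 row, with 8 reads in BL_1 and 471 reads in BL_2, and with 3136 reads from ES-like cells, 4891 from PEBs and 7890 from PFFs. The values were 70.3 RPM in BL_1 (counting interval 30.4 to 139 RPM), 169 RPM in BL_2 (154 to 185 RPM), 492 RPM in ES-like cells, 309 RPM in PEBs and 291 RPM in PFFs. The 3 cultured libraries were above both BL libraries in RPM. Among the cultured libraries ES-like cells were highest in RPM, but PFFs were highest with TMM factors (483 against 309.8 for ES-like cells and 274 for PEBs) and with DESeq2 size factors (426 against 355 and 227). Its rank ranged from 88th in PFFs to 124th in BL_1.

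**Figure D1:**
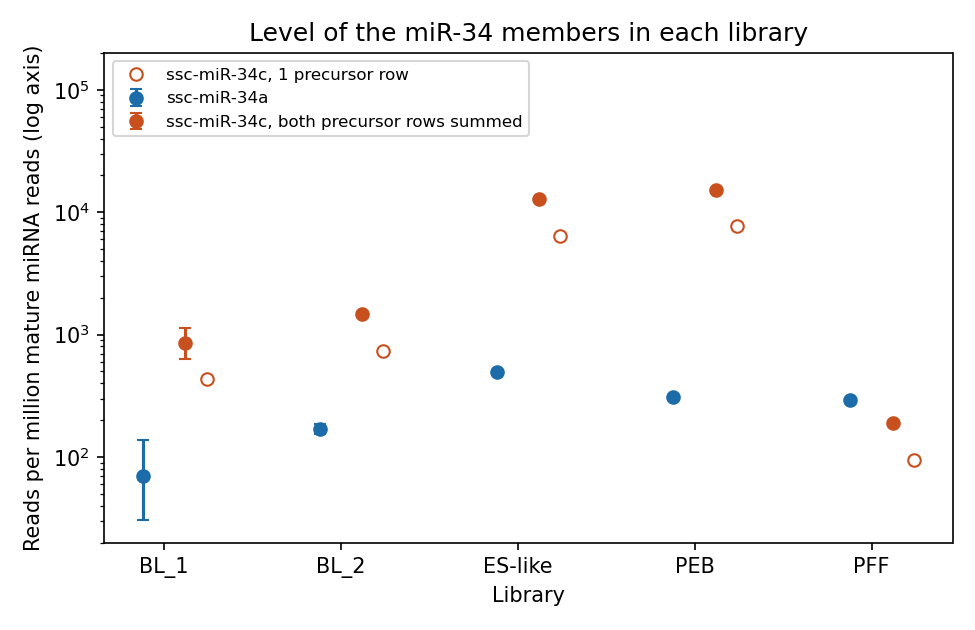
RPM (log axis) of ssc-miR-34a and ssc-miR-34c in each of the 5 libraries. Filled points are sums over precursor rows with 95% Poisson counting intervals, and open points are 1 precursor row of ssc-miR-34c. ssc-miR-34c stands at 12749 and 15298 RPM in ES-like cells and PEBs against 191 RPM in PFFs, while ssc-miR-34a stays between 70.3 and 492 RPM.

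The BL libraries differed from each other for both members. ssc-miR-34a was 2.41 times and ssc-miR-34c 1.70 times as high in BL_2 as in BL_1, with log2 differences of -1.27 and -0.77 for BL_1 over BL_2. Over the 149 miRNAs with at least 5 reads in both BL libraries, the median size of this log2 difference was 0.50, and 10.7% of them differed by more than ssc-miR-34a and 31.5% by more than ssc-miR-34c. The mean over BLs was 120 ± 70.0 RPM (SD, n = 2) for ssc-miR-34a and 1164 ± 428 RPM (SD, n = 2) for ssc-miR-34c. Because the members share a seed, their reads were also summed. The sum was 932 RPM in BL_1, 1637 RPM in BL_2, 13241 RPM in ES-like cells, 15607 RPM in PEBs and 482 RPM in PFFs, an order set by ssc-miR-34c.

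The balance between the members does not depend on the scale of a library. ssc-miR-34c made up 92.5% and 89.7% of the miR-34 reads in the BL libraries, 96.3% of those of ES-like cells, 98.0% of those of PEBs and 39.6% of those of PFFs. With 1 row of ssc-miR-34c, the shares were 86.0% in BL_1 (95% Wilson interval 74.7 to 92.7%), 81.25% in BL_2 (79.7 to 82.7%), 92.8% in ES-like cells (92.6 to 93.1%), 96.1% in PEBs (96.0 to 96.2%) and 24.7% in PFFs (23.8 to 25.5%). PFFs were thus the library in which ssc-miR-34a had more reads than ssc-miR-34c under both ways of counting. Reads of ssc-miR-34c were 49.6 times those of ssc-miR-34a in PEBs, while the ratio was 25.9 in ES-like cells and 0.654 in PFFs. With 1 row, the interval of BL_1 reached into that of ES-like cells, so counting error did not separate these libraries. With the sum, the interval of BL_1 (85.81 to 96.13%) ended just below that of ES-like cells (96.15 to 96.41%). Intervals on the sum treat both rows as separate reads. They are too narrow if a read entered both rows, so this gap does not separate the libraries. BL_2 lay below both ES-like cells and PEBs under both ways of counting. The cultured cell types had no replicate library for this share.

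**Figure D2:**
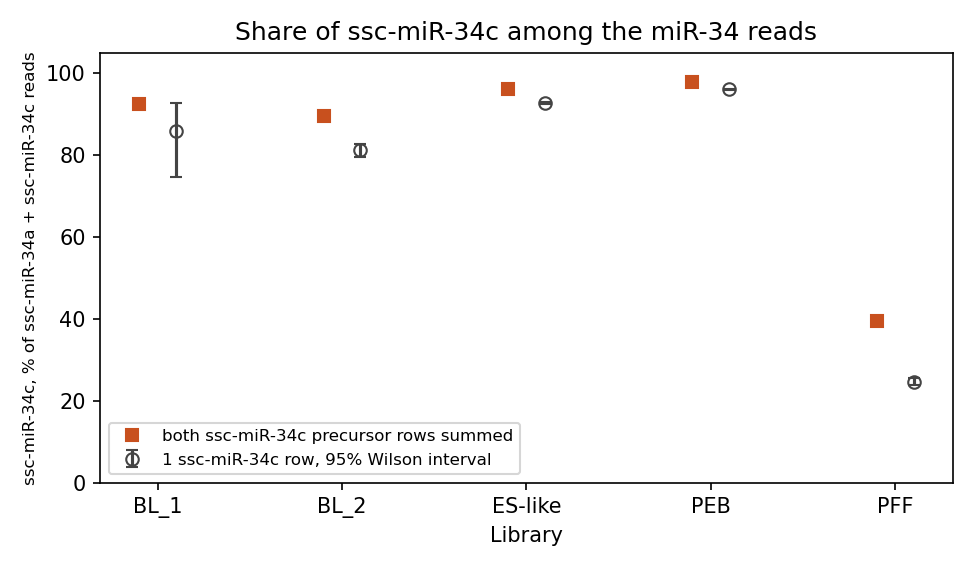
Percentage of ssc-miR-34c among the reads of ssc-miR-34a and ssc-miR-34c in each library. Squares use the sum of both ssc-miR-34c rows and circles 1 row with 95% Wilson intervals. The share is above 80% in each BL, ES-like and PEB library and 39.6% or 24.7% in PFFs.

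BLs were compared with each cultured cell type to ask how the embryo and the cultures differ. The 279 miRNAs that exceeded 5 reads in 3 or more libraries were fitted in 1 model of the 4 cell types with edgeR's quasi-likelihood test, normalised by TMM (trimmed mean of M values), with p-values adjusted by Benjamini and Hochberg over the 279. The spread in this fit comes from BL_1 and BL_2, and each single library is assumed to vary like them. The 3 comparisons share the BL libraries. Many miRNAs passed an adjusted p of 0.05: 46.6% of those tested against ES-like cells (29.7% lower and 16.8% higher in BLs), 50.2% against PEBs (34.1% lower and 16.1% higher) and 52% against PFFs (31.2% lower and 20.8% higher).

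ssc-miR-34c was lower in BLs than in ES-like cells and PEBs, and higher in BLs than in PFFs. Against ES-like cells its log2 fold change was -2.67 (SE 0.68, edgeR adjusted p = 0.000519), lower in 2 of 2 BL libraries. In RPM, ES-like cells stood at 14.8 times BL_1 and 8.69 times BL_2. Against PEBs the log2 fold change was -3.43 (SE 0.69, edgeR adjusted p = 7.39e-06), and PEBs stood at 17.8 times BL_1 and 10.4 times BL_2 in RPM. Against PFFs it was 1.99 (SE 0.78, edgeR adjusted p = 0.0254), with BL_1 at 4.52 times and BL_2 at 7.69 times the RPM of PFFs. The median log2 fold change of all tested miRNAs was -0.69, -0.93 and -0.80 in these comparisons, so ssc-miR-34c lay below the median against ES-like cells and PEBs and above it against PFFs. Each of the 3 calls held in the 5 alternatives with a test. Without BL_1, whose omission leaves no test, the TMM-scaled log2 ratio was -1.83 against ES-like cells, -2.29 against PEBs and 3.14 against PFFs, and without BL_2 it was -3.39, -3.86 and 1.57.

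For ssc-miR-34a, none of the 3 differences passed. Its log2 fold change in BLs was -1.16 (SE 0.83, edgeR adjusted p = 0.262) against ES-like cells, -0.98 (SE 0.83, edgeR adjusted p = 0.332) against PEBs and -1.80 (SE 0.82, edgeR adjusted p = 0.0546) against PFFs. These values rest on 8 reads in BL_1. Without BL_1 the TMM-scaled log2 ratios were -0.25, 0.23 and -0.59, that against PEBs with the opposite sign, and without BL_2 they were -2.31, -1.84 and -2.66. On library totals alone the difference from ES-like cells passed, with a log2 fold change of -1.94 (edgeR adjusted p = 0.0241, range over its alternatives 0.0241 to 0.272), and the difference from PFFs passed without a filter on low counts and with the largest precursor count (edgeR adjusted p = 0.0348 and 0.0404, range 0.0348 to 0.195).

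**Figure D3:**
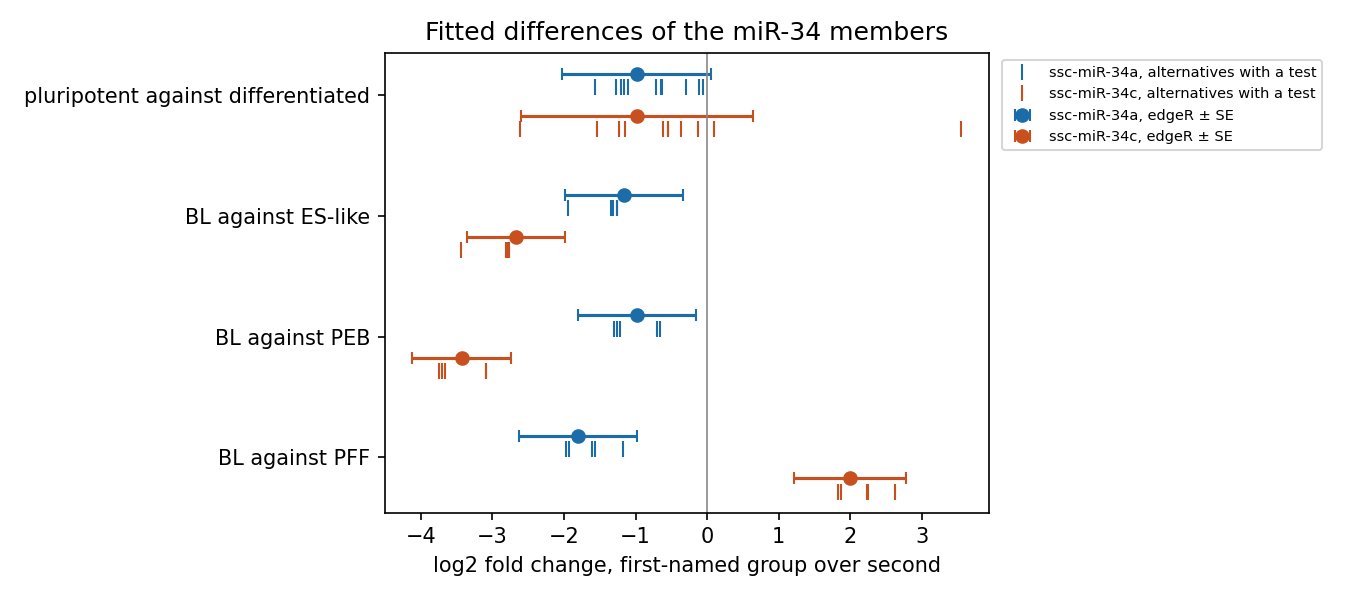
log2 fold changes of ssc-miR-34a and ssc-miR-34c, first-named group over second, from edgeR (points) and from each alternative with a test (ticks). Bars are standard errors derived from the F statistic of the edgeR test. ssc-miR-34c is at -2.67 against ES-like cells, -3.43 against PEBs and 1.99 against PFFs, and the ticks of the comparison of pluripotent with differentiated cells lie on both sides of 0.

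The study grouped BLs and ES-like cells as pluripotent and PEBs and PFFs as differentiated. Neither member passed the test between these groups, whose libraries are of different cell types, and the spread was wide, with a common dispersion of 1.25 against 0.153 in the fit of the 4 cell types. For ssc-miR-34c the log2 fold change of pluripotent over differentiated cells was -0.98 (SE 1.62, edgeR adjusted p = 0.853), and for ssc-miR-34a -0.98 (SE 1.04, edgeR adjusted p = 0.775). The values of ssc-miR-34c in the groups overlapped, since both BL libraries lay between PFFs and PEBs. No miRNA passed in this comparison (0% of 279, edgeR's quasi-likelihood test), 29 (10.4%) had an unadjusted p under 0.05, limma passed 0 and DESeq2 passed 14, neither member among them. The direction for ssc-miR-34c turned when the PEB library was left out, with a log2 fold change of 3.55 (edgeR adjusted p = 0.443, range over the alternatives 0.329 to 0.989), and was 0.10 with limma. Without the ES-like library 16 miRNAs passed, again neither member, and ssc-miR-34c stood at -2.61.

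The cultured cells had 1 library each, so their ratios are given with exact counting intervals and no test. ssc-miR-34c in ES-like cells stood at 66.8 times its level in PFFs (counting interval 64.2 to 69.6), and in PEBs at 80.2 times (77.1 to 83.4). These intervals do not cover the choice of scale, since the log2 ratios of 6.06 and 6.33 in RPM became 4.67 and 5.42 with TMM factors and 5.05 and 5.33 with DESeq2 size factors. Ratios above 2 were common, with 53% of the 279 miRNAs above 2 for ES-like cells over PFFs and 45.5% for PEBs over PFFs. A ratio at least as large as that of ssc-miR-34c was found for 9.32% and 7.89% of them. Between ES-like cells and PEBs, ssc-miR-34c was 1.20 times as high in PEBs (1.19 to 1.21), while 23.7% of miRNAs were more than 2-fold higher in ES-like cells and 20.8% more than 2-fold higher in PEBs.

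For ssc-miR-34a the ratios between cultured cells were small, and the direction of those against PFFs depended on the scale, while ES-like cells stayed above PEBs on each scale tried. ES-like cells stood at 1.59 times PEBs (1.52 to 1.67) and 1.69 times PFFs (1.62 to 1.76) in RPM, and PEBs at 1.06 times PFFs (1.02 to 1.10). With TMM factors the log2 ratio of ES-like cells over PFFs turned from 0.76 to -0.64 and that of PEBs over PFFs from 0.08 to -0.82. The median of all tested miRNAs moved with the scale, from 1.10 to -0.29 for ES-like cells over PFFs, from 0.78 to -0.13 for PEBs over PFFs and from 0.23 to -0.27 for ES-like cells over PEBs. Relative to that median, the log2 ratio of ssc-miR-34a was -0.35, -0.69 and 0.45, and that of ssc-miR-34c was 4.96, 5.55 and -0.49. The most abundant miRNA of PFFs, ssc-miR-21, took up 52.3% of the reads there.

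**Figure D4:**
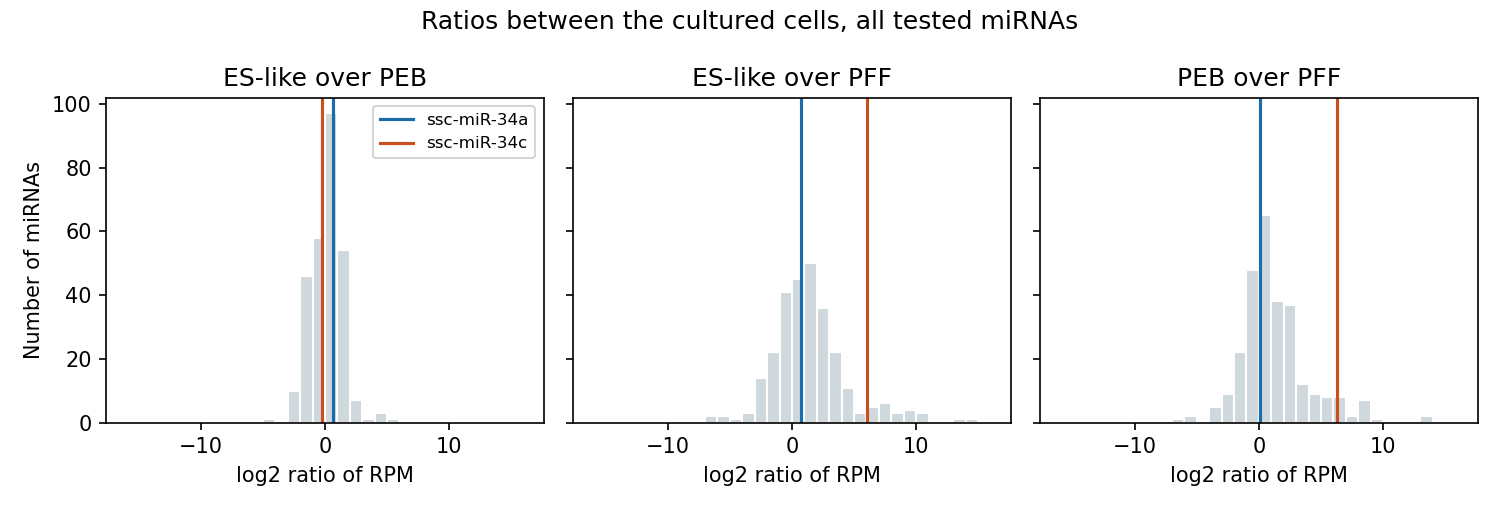
Distribution of log2 RPM ratios between the cultured cells over the tested miRNAs with a read in both libraries (bars, number of miRNAs per bin), with ssc-miR-34a and ssc-miR-34c as vertical lines. ssc-miR-34c stands in the right tail against PFFs, at 6.06 and 6.33, and near the middle for ES-like cells over PEBs.

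The study screened each cell type for miRNAs that were either up or down by more than 2-fold. Its methods describe the upward side, a level higher than in each other type, with BLs as the mean of their libraries. This upward side was applied here to all detected miRNAs. On RPM values, 18.7% of the 327 detected miRNAs passed as BL-specific, 12.5% as specific to ES-like cells, 7.34% to PEBs and 7.95% to PFFs. Neither ssc-miR-34a nor ssc-miR-34c passed this upward rule for any cell type, nor in any of the 8 alternatives. Downward, ssc-miR-34c in PFFs (191 RPM) lay more than 2-fold below the BL mean (1164 RPM), ES-like cells and PEBs. For ssc-miR-34a, the BL mean in RPM lay more than 2-fold below each cultured cell type. ES-like cells, PEBs and PFFs stood at 4.11, 2.58 and 2.43 times the BL mean. Against BL_2 alone, PEBs and PFFs stood at only 1.82 and 1.72 times. With DESeq2 size factors, PEBs (227) were less than 2-fold above the mean of BL_1 (83.7) and BL_2 (184). The downward rule was not applied to all miRNAs, so no share is given for it. The joint rules were passed by 6.73% for BLs with ES-like cells and by 3.98% for PEBs with PFFs, again without either member. The upward rule missed ssc-miR-34c because ES-like cells and PEBs were both high. ssc-miR-34c did meet a rule written after its values were seen, that ES-like cells and PEBs each exceed BLs and PFFs by more than 2-fold, as did 20.8% of the 327.

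The miRNAs with the pattern most like that of ssc-miR-34c were sought by the root mean square distance between log2(RPM + 1) profiles centred over the 5 libraries. Of 115 other miRNAs with at least 10 reads in every library, the nearest was ssc-miR-340 at 1.03, followed by ssc-miR-192 at 1.12 and ssc-miR-20b at 1.19, against a median distance of 2.39. ssc-miR-340 stood at 14231 RPM in ES-like cells, 7679 RPM in PEBs, 1811 and 1848 RPM in BLs and 822 RPM in PFFs. ssc-miR-192, which is known from liver, gut and kidney, stood at 5926, 2650, 167 and 507, and 8.42 RPM in the same order. ssc-miR-20b, of the miR-106a-363 cluster, stood at 7277, 1731, 87.9 and 70.4, and 40.9 RPM. Its values sum 2 precursor rows, so a read may count more than 1 time. All 3 were higher in ES-like cells than in PEBs, unlike ssc-miR-34c. ssc-miR-34a had fewer than 10 reads in BL_1 and was not compared. The same 3 miRNAs were nearest with TMM factors and with log2(RPM + 10).

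The liver miRNA ssc-miR-122 stood at 1767 and 837 RPM in BLs, 101004 RPM in ES-like cells, 54096 RPM in PEBs and 4.14 RPM in PFFs, high in the libraries in which ssc-miR-34c was high. Its part in the result was not tested. Of the 4 names in the list for ciliated epithelium and germ cells, 0 had a row in the table.

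The mature miRNAs made by the miR-17-92 cluster, which are known to promote proliferation, were also compared. By the edgeR test, 6 of the 7 were lower in BLs than in ES-like cells (29.7% of all tested miRNAs) and 6 were lower than in PEBs (34.1% of all). Against PFFs, 3 were lower (31.2% of all) and 1 was higher (20.8% of all). All 7 were more than 2-fold higher in RPM in ES-like cells than in PFFs (53% of all) and in PEBs than in PFFs (45.5% of all), with median log2 ratios of 3.001 and 2.58 against 1.10 and 0.78 over all tested miRNAs. ssc-miR-20a stood at 1670 and 2443 RPM in BLs, 12970 RPM in ES-like cells, 11666 RPM in PEBs and 1792 RPM in PFFs. ssc-miR-17-5p stood at 308 and 486 RPM in BLs, 4999.6 RPM in ES-like cells, 4619.6 RPM in PEBs and 806 RPM in PFFs, and ssc-miR-19b at 141 and 651 RPM, 3743 RPM, 1909.6 RPM and 319.96 RPM in the same order. In both, ES-like cells and PEBs lay above the other 3 libraries. ssc-miR-92a, the most abundant of the 7, stood at 53937 and 47804 RPM in BLs, 77449 RPM in ES-like cells, 46699 RPM in PEBs and 6544 RPM in PFFs, and was the miRNA higher in BLs than in PFFs. ssc-miR-92a and ssc-miR-19b each sum 2 precursor rows, and both are also made by the miR-106a-363 cluster, so their levels are not those of 1 cluster and may count a read more than 1 time. ssc-miR-20a, ssc-miR-17-5p and ssc-miR-19b thus had their highest levels in the same 2 libraries as ssc-miR-34c.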

How the data were processed

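Per the study's methods, the authors filtered reads by length and by presence of the adapter, removed adapters (Cutadapt 1.10), aligned with Bowtie 1.1.1 and assigned miRBase miRNAs with miRDeep2. Tool versions and the genome build, Sscrofa10.2, are those of the submitters' processing notes. The deposited table holds raw read counts per pair of mature miRNA and precursor. How reads that match several precursors were counted is not given in the sources used here. The paper's normalized values were not used, and its sample sheet lists the mature read totals of ES-like cells and PFFs the other way round from the column sums of the table, whose column names match the labels and were followed. The deposited table of predicted loci carries no miRNA names and was not used.

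Here, counts were summed over precursor rows and divided by the total of each library (RPM). Tests were run in R 4.3.3 with edgeR 4.0.16 (glmQLFit, TMM), with DESeq2 1.42.0 and limma 3.58.1 as alternatives, on miRNAs that exceeded 5 reads in 3 or more libraries, at an adjusted p of 0.05. Other alternatives were other scales, pseudocounts, no filter, the largest precursor count (for the tests with a p, chosen after seeing the data) and the omission of single libraries. The SE given with an edgeR value is the size of its log2 fold change divided by the square root of the test's F statistic. Intervals used scipy 1.17.1, with pandas 2.3.3 and numpy 2.4.6 in Python 3.11.15. The edgeR fits were tested on simulated data, in which the fit of pluripotent against differentiated cells, at its own dispersion, called none of the large changes put in, so the absence of calls there does not show that levels were alike.

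The named miRNAs are the members, the 3 nearest to a member with at least 10 reads in every library, and the 4 of the miR-17-92 list with the highest mean RPM, with marker miRNAs added after their values were seen. Some lists of the naming rule are not reported here. The members and lists were chosen with earlier results of these data known. Mature sequences were not printed.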

Additional observations from a re-analysis of the deposited data

How the results depend on the processing

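Of the values recomputed under an alternative, 106 stayed as reported by direction, threshold or spread, and 3 newly passed a threshold. Another 31, counts and shares among them, moved up or down without a change of sign. The remaining 9 changed sign, of which 7 belong to ssc-miR-34a and 2 to ssc-miR-34c. No call of ssc-miR-34c was lost. In the comparison of pluripotent with differentiated cells, DESeq2 called 14 miRNAs, and omission of single libraries gave 0 to 16 calls and log2 fold changes of ssc-miR-34c from -2.61 to 3.55. limma gave 0.10 for ssc-miR-34c. For ssc-miR-34a, BLs against ES-like cells passed with library totals only at -1.94, and BLs against PFFs passed without a filter on low counts at -1.98 and with the largest precursor count at -1.92. The cause of these changes was not tested. Without 1 BL library, log2 ratios ranged from -2.31 to -0.25 (ES-like cells), -1.84 to 0.23 (PEBs) and -2.66 to -0.59 (PFFs) for ssc-miR-34a, and from -3.39 to -1.83, -3.86 to -2.29 and 1.57 to 3.14 for ssc-miR-34c. These fits leave no residual degrees of freedom, so no calls were counted.

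Log2 ratios of ES-like cells over PEBs, ES-like cells over PFFs and PEBs over PFFs moved beyond counting error under the alternatives given next, and for ssc-miR-34a ES-like cells over PEBs moved only with TMM factors and the largest precursor count. For ssc-miR-34c they were -0.76, 4.67 and 5.42 with TMM factors, -0.29, 5.05 and 5.33 with DESeq2 size factors, -0.31, 5.25 and 5.56 without the most abundant miRNA in the total, and -0.39, 6.15 and 6.53 with the largest precursor count. A pseudocount of 10 RPM gave 5.99 and 6.25 against PFFs. For ssc-miR-34a they were 0.18, -0.64 and -0.82 with TMM factors, -0.26 and -0.91 against PFFs with DESeq2 size factors, -0.0598 and -0.68 against PFFs without the most abundant miRNA, and 0.55, 0.84 and 0.29 with the largest precursor count. That count gave shares of ssc-miR-34c of 81.25% for BL_2, 92.8% of ES-like reads, 96.1% of PEB reads and 24.7% of PFF reads. Depth limits ssc-miR-34a most in BL_1, where a miRNA without a read could stand at up to 26.4 RPM (3 counts).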
